A study of Mus musculus with 9 samples.

Results

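Callus, the repair tissue that bridges a broken bone, was taken from fractured mouse femurs on day 7 after surgery, and its messenger RNA was sequenced. The genes described here are 36 genes of glycolysis and of the response to hypoxia, chosen by their symbols out of the 22054 genes of the expression table. They matched 37 rows, since Aldoa has a second row under another identifier (ENSMUSG00000114515) that held 1 to 8 counts per library and was not tested. Among the 36 are 3 isoforms typical of skeletal muscle (Pgam2, Eno3 and Slc2a4), which are described apart from the other 33. The series asked how the cGAS-STING pathway, a sensor of DNA in the cytosol, acts in fracture healing, and it changed the pathway with small molecules in 3 groups of 3 libraries. All mice were male and 7 weeks old per the labels, of the strain C57BL/6J per the study's methods, and carried a femoral fracture. The H-151 group was injected intraperitoneally each day for a week with 750 nmol of H-151, an inhibitor of STING. The SR-717 group was injected in the same way with 30 mg/kg of SR-717, an activator of STING, and the PBS group with buffer, all in 200 μl. There was no group without fracture, and the labels call the libraries replicate biosamples without saying whether each came from 1 mouse, so the p-values below measure only the spread between these libraries.

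Glycolysis breaks glucose down to pyruvate in the cytosol, and lactate dehydrogenase turns pyruvate into lactate when it is not burned in the mitochondria. When oxygen is short, the prolyl hydroxylases that mark HIF alpha subunits for degradation slow down, the subunits pair with ARNT, and the pair switches on glucose transporters, glycolytic enzymes and other hypoxia genes through short DNA motifs. The early callus has few vessels, its chondrocytes live largely on glycolysis, and activated neutrophils and macrophages use it heavily too.

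The libraries held 16987398 to 23272480 counts. On the first principal component of all genes, which carried 46.6% of the variance, SR-717 replicate 1 lay at 101 and PBS replicate 1 at 38.8, while the other 7 libraries lay between -28.8 and -4.03. SR-717 replicate 1 also stood apart in cell type markers. Its 10 genes of acute inflammation (Il1b, Cxcl2 and others) summed to 3631 TPM (transcript levels scaled for gene length and library), against 932 TPM in PBS replicate 1 and 30.2 to 179 TPM in the other 7 libraries. Its 10 neutrophil markers summed to 35175 TPM (1515 to 12293 TPM in the other 8) and its 8 macrophage markers to 3488 TPM (1222 to 2466 TPM), while its 8 chondrocyte markers summed to 143 TPM (645 to 5901 TPM). Every neutrophil, macrophage and chondrocyte marker had reads in every library, and 1 of the 10 inflammation genes was at 0 in at least 1 library. Markers of osteoblasts and osteoclasts were present in every library of this tissue, labelled bone, and both were lowest in SR-717 replicate 1, at 7417 TPM (12131 to 19400.2 TPM in the other 8) and 5238 TPM (6497 to 10935 TPM). The 7 erythroid markers in the table summed to 1528 TPM there and to 895 TPM in PBS replicate 1, against 3031 to 29606 TPM in the other 7. In bulk tissue, fewer cells of a type and less RNA per cell cannot be told apart.

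The glycolysis and hypoxia genes moved most between single libraries, and the same 2 libraries recurred. On normalized counts (CPM, counts scaled to a common library size), SR-717 replicate 1 was the highest library for 25 of the 33 members (75.8%). It was the highest for 25.9% of all 14294 genes that passed the filter on low counts. On TPM, Tpi1, Gapdh and Ldha were instead highest in SR-717 replicate 3, and Epas1 and Ankrd37 in PBS replicate 1. PBS replicate 3 was the lowest on CPM for 18 of the 33 (54.5%), against 16.5% of all genes. Of these, Pfkfb3 and Ndrg1 were lowest in H-151 replicate 3 on TPM. In 7 of the 33 (21.2%, against 5.27% of all genes), SR-717 replicate 1 lay more than 2 times above the highest other library on CPM. These 7 were the glucose transporters Slc2a1 and Slc2a3, the lactate transporter Slc16a1, the glycolytic activator Pfkfb3, Hif1a, its hydroxylase Egln3 and the mitophagy gene Bnip3. On TPM, Bnip3 lay 1.82 times above the highest other library and the others still more than 2 times. The 3 members that were lowest in SR-717 replicate 1 were Pdk4, Ldhb and Eno2. The muscle isoforms followed another order, lowest in PBS replicate 3 and highest in SR-717 replicate 3, in all 3 cases.

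**Figure D1:**
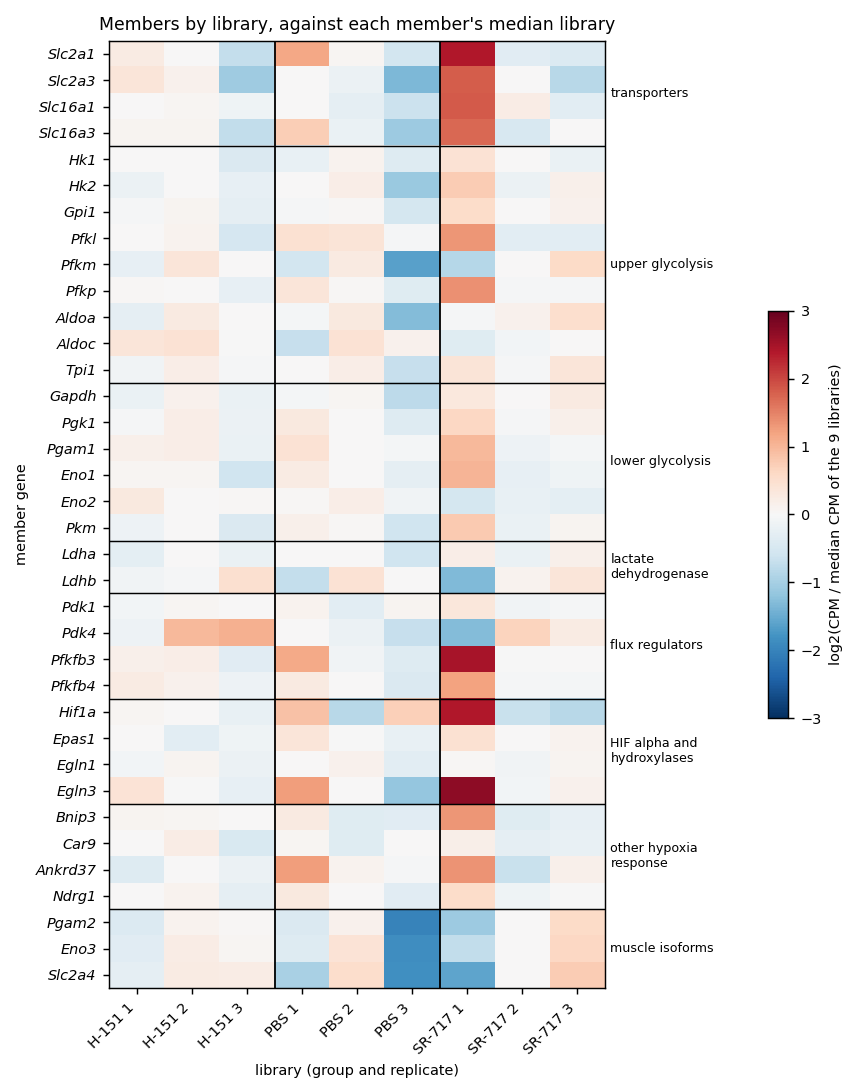
Heat map of the 36 members (rows, by role) in the 9 libraries (columns), as log2 of the normalized count (CPM, counts scaled to a common library size) over that member's median library. The column of SR-717 replicate 1 is red for most transporters, flux regulators and hypoxia genes and blue for the muscle isoforms, and PBS replicate 3 is blue for most glycolytic enzymes.

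The promoters of 5 members are shown because they span the patterns in the heat map: Egln3 and Slc16a1, among the members that stood highest in SR-717 replicate 1, Hk2 and Pgk1, textbook targets of HIF that moved less, and the muscle isoform Pgam2. Each line is the 250 bases before a RefSeq transcription start, read 5′ to 3′ on the gene's strand (RefSeq, GRCm38.p6). Capitals mark the core of the hypoxia response element, searched as ACGTG or GCGTG on both strands, so that CACGT and CACGC are the same motif on the other strand, and overlapping matches around 1 CG count once. Egln3 is at chr12:54203875-54204124 (minus strand), Slc16a1 at chr3:104638414-104638663 (plus), Hk2 at chr6:82774455-82774704 (minus), Pgk1 at chrX:106186850-106187099 (plus) and Pgam2 at chr11:5803797-5804046 (minus), all outside the annotated gene.
Egln3: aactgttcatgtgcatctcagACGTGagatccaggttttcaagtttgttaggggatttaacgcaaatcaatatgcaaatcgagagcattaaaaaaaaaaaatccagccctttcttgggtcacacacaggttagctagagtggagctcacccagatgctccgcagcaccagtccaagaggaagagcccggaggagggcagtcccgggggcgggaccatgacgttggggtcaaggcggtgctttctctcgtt
Slc16a1: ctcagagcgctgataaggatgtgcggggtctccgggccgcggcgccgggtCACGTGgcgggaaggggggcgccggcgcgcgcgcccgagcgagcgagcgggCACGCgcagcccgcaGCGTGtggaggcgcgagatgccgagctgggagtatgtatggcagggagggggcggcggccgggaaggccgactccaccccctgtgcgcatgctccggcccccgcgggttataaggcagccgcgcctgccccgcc
Hk2: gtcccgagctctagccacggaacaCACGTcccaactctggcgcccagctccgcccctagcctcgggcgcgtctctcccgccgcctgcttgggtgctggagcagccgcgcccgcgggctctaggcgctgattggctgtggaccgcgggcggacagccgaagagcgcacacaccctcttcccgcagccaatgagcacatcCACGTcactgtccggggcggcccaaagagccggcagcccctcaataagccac
Pgk1: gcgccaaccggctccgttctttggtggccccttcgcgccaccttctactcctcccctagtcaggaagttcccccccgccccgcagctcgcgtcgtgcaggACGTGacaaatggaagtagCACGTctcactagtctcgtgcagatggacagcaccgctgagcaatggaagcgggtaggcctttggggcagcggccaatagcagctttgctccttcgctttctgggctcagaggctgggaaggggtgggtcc
Pgam2: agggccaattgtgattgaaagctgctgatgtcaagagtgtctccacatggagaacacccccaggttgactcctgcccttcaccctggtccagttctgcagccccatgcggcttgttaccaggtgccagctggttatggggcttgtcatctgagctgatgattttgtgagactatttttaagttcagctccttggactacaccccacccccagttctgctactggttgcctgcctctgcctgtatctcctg
The motif occurred 1 time in Egln3, with its CG 228 bases before the start, and 3 times in Slc16a1, at 198, 147 and 133 bases. Hk2 held 2 (224 and 50 bases), Pgk1 held 2 (149 and 129 bases) and Pgam2 held none of these letters. RefSeq windows were at hand for 32 of the 36 members (none for Ndrg1, Slc2a3, Epas1 and Slc2a4), 45 windows in all. Of these, 36 (80.0%) held the motif and 18 (40.0%) held it at least 2 times. Among windows of all genes that passed the filter the shares were 53.3% and 22.3%, at a mean GC content of 59.4% against 60.4% in the members' windows, and among all 32851 windows the first share was 38.6%. These are shares of windows, not of genes. Windows of the same gene can overlap and hold the same site, as for Eno1, Aldoa and Pfkm. A match is a run of letters and does not show that a factor binds there.

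The first question was whether activating STING changed these genes relative to buffer. In SR-717 against PBS, no member passed the study's thresholds (unadjusted p below 0.05 and a change of at least 1.5-fold) by edgeR's quasi-likelihood test, in either direction. Over all 14070 genes tested, 0.27% passed as higher and 0.249% as lower. With a block for the replicate number, 342 genes passed as higher and 101 as lower, in place of 38 and 35, and again no member. The unadjusted p was below 0.05 for 0 of the 36 members by edgeR and for 1, Slc16a1, by DESeq2, which gave no p for Hif1a. Over all 14070 genes it was below 0.05 for 0.689% by edgeR and for 178 genes by DESeq2. None reached an adjusted p below 0.05 by either tool, nor did any gene in the table. Of the 33 members, 29 had a positive log2 fold change and the median was 0.38, beside 52.3% positive and a median of 0.01 over all genes. Without SR-717 replicate 1, 15 of the 33 were positive and the median was -0.02, and without both SR-717 replicate 1 and PBS replicate 1, 24 were positive and the median was 0.17. Without PBS replicate 3 the median was 0.19, with 28 positive.

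The second question was whether inhibiting STING changed them. In H-151 against PBS, 1 of the 36 members, Pdk4, passed as higher and 0 as lower, while 0.263% and 0.163% of the 14085 genes tested passed (37 and 23 genes, or 201 and 61 with the replicate block). Pdk4 was also the only member with an unadjusted p below 0.05 by edgeR or DESeq2, where 0.646% of all genes had one by edgeR and 125 genes by DESeq2. The adjusted p was 1.00 for every member by edgeR. The 33 members split into 19 positive (57.6%) and 14 negative log2 fold changes, where 44.2% of all genes were positive. Their median was 0.03, against -0.02 over all genes. This split hung on single libraries: 9 of the 33 were positive without PBS replicate 3 (median -0.11), 13 without H-151 replicate 2 (median -0.08) and 27 without PBS replicate 1 (median 0.12).

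The third comparison set the activator against the inhibitor. In SR-717 against H-151, no member passed in either direction, while 0.367% of the 14151 genes tested passed as higher and 0.389% as lower. The adjusted p of the members was 0.996 or more. By edgeR 0 of the 36 had an unadjusted p below 0.05, and by DESeq2 0 of the 35 that it gave a p for (all but Hif1a). Over all genes, 1.03% had one by edgeR and 281 genes by DESeq2. The median log2 fold change of the 33 members was 0.32, with 27 positive (81.8%), beside 53.4% positive and a median of 0.02 over all genes. Once SR-717 replicate 1 was left out, the median of the members was -0.03, with 14 positive. All 3 comparisons share groups, so their values are not independent of each other. On normalized counts (CPM), the groups did not overlap in 1 of the 36 members: Eno2, a minor enolase of neurons, was lower in all SR-717 libraries than in all others, where 2.62% (against PBS) and 2.82% (against H-151) of all genes were apart in that direction. On TPM the groups overlapped in Eno2 too, with 3.97 TPM in SR-717 replicate 3 against 3.01 TPM in PBS replicate 3 and 3.29 TPM in H-151 replicate 3. On CPM, no member was apart in the higher direction in SR-717 against PBS (1.36% of all genes) or against H-151 (2.23%), and none in either direction in H-151 against PBS (1.6% higher and 2.15% lower).

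**Figure D2:**
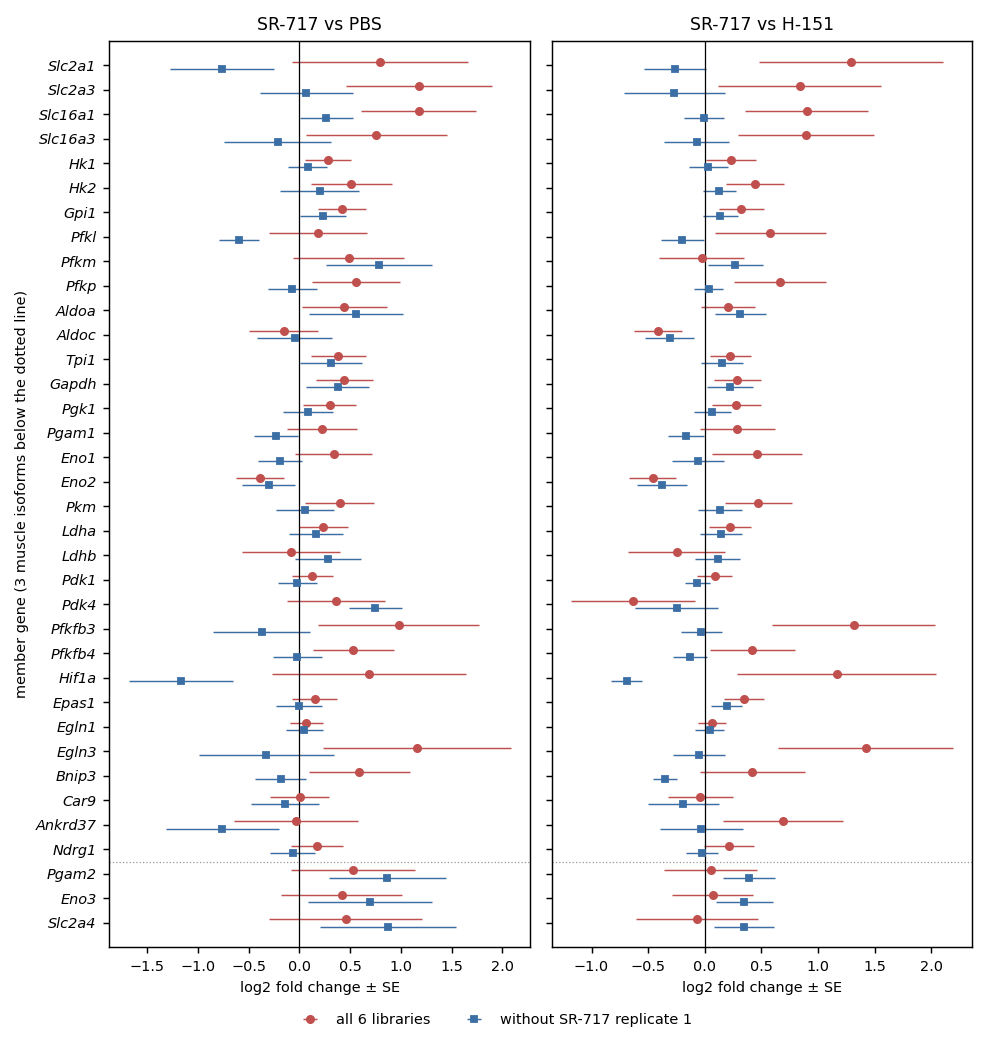
Log2 fold change ± standard error of each member (edgeR) in SR-717 against PBS (left) and SR-717 against H-151 (right), from all 6 libraries (red circles) and from 5, without SR-717 replicate 1 (blue squares). The red points lie mostly right of 0, with medians of 0.38 and 0.32 over the 33 members above the dotted line, and the blue ones around it, with medians of -0.02 and -0.03.

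Transporters bring glucose in and carry lactate out, and 3 of the 5 were among the 7 members that stood far higher in SR-717 replicate 1. Slc2a1, the basal and hypoxia-induced glucose transporter GLUT1, was at 45.2, 38.1 and 23.0 normalized counts (CPM) in H-151 replicates 1 to 3, at 85.5, 39.9 and 25.9 in PBS and at 200.2, 30.3 and 28.8 in SR-717. Only 1 SR-717 library was high, and the other 2 lay inside the range of the PBS group. By edgeR, the log2 fold change of Slc2a1 was 1.29 ± 0.81 (SE) in SR-717 against H-151 and 0.79 ± 0.87 against PBS, neither past the thresholds, and -0.26 and -0.76 without SR-717 replicate 1. Slc2a3 encodes GLUT3, the transporter of neurons and activated leukocytes. It was at 44.4, 37.4 and 16.3 CPM in H-151, 34.4, 30.2 and 13.4 CPM in PBS and 121, 34.8 and 19.3 CPM in SR-717. The groups overlapped, with a log2 fold change of 1.18 ± 0.72 in SR-717 against PBS (not past the thresholds) that was 0.07 without SR-717 replicate 1 and 1.59, past them, without SR-717 replicate 3. In the fit without SR-717 replicate 3, 261 of all 14362 genes tested passed as higher, in place of 38 with all libraries.

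Slc16a1 (MCT1), which moves lactate across the membrane in both directions, was at 54.8, 56.6 and 49.5 CPM in H-151, 54.2, 44.7 and 34.9 CPM in PBS and 193, 63.1 and 43.3 CPM in SR-717. In SR-717 against PBS its log2 fold change was 1.17 ± 0.57 by edgeR, which did not pass the p threshold, and 1.18 ± 0.59 by DESeq2, which did, unadjusted. Without SR-717 replicate 1 the log2 fold change was 0.27 ± 0.26 with no call. Without SR-717 replicate 3 it was 1.53 ± 0.49 with a call as higher, 1 of the 261 such calls in that fit. The lactate exporter Slc16a3 (MCT4) gave 71.6% to 86.4% of the summed TPM of both lactate transporters, at 329.7 CPM in SR-717 replicate 1 and 46.6 to 166 CPM in the other 8 libraries. Summed over the 5 transporters, the level per length was 536 TPM in SR-717 replicate 1 and 88.5 to 268 TPM elsewhere. The neutrophil, macrophage and inflammation markers of that library are given above, and their part in these values was not tested.

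**Figure D3:**
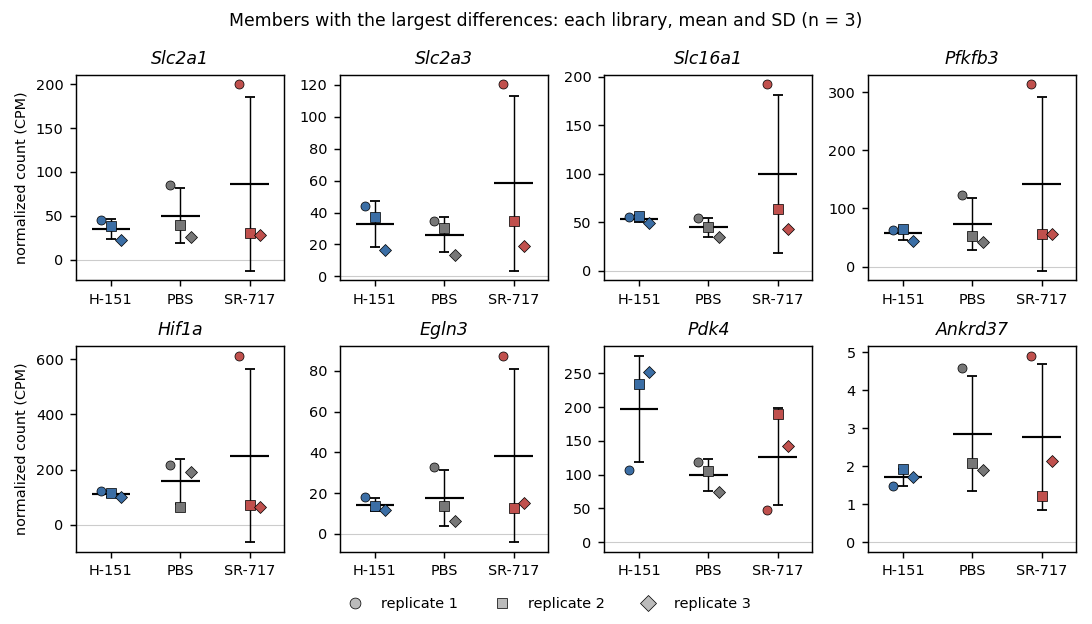
Normalized counts (CPM) in each library, by group, of 8 members picked from those with large differences (Slc2a4 and Slc16a3 are not shown). Marker shape gives the replicate number, the bar the group mean and the whisker the SD (n = 3). SR-717 replicate 1 (red circle) is highest in the first 6 panels and in Ankrd37 and lowest in Pdk4, where H-151 replicates 2 and 3 are highest.

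The enzymes of upper glycolysis turn glucose into triose phosphates. The 9 members of this stretch summed to 2029 to 6330.1 TPM, lowest in PBS replicate 3 and highest in SR-717 replicate 3, with Aldoa and Tpi1 the leading genes. Aldoa, the aldolase of muscle and most other tissues, was at 2702, 3776 and 2644 TPM in H-151, 2801, 3886 and 1076 TPM in PBS and 2449.6, 3100.1 and 4292 TPM in SR-717. Tpi1, which interconverts the triose phosphates, was at 823, 949 and 713 TPM in H-151, 819.6, 989 and 473 TPM in PBS and 943, 752 and 1058 TPM in SR-717. In both genes PBS replicate 3 was the lowest library and the groups overlapped.

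The hexokinases, which trap glucose in the cell, and the phosphofructokinases, which commit it to glycolysis, differed in their pattern. Hk1, Hk2, Gpi1, Pfkl and Pfkp were highest in SR-717 replicate 1, by 1.27 (Hk1) to 1.99 times (Pfkp) over the next library on CPM. Pfkm, the muscle phosphofructokinase, was instead at 182 CPM in that library, at 107 CPM in PBS replicate 3 and at 225 to 493 CPM in the other 7. Pfkl, the liver form, was at 77.8, 74.6 and 55.6 CPM in PBS and at 143, 45.4 and 45.7 CPM in SR-717. In SR-717 against PBS, the log2 fold change of Pfkl was 0.18 ± 0.48 with all libraries and -0.59 ± 0.20 without SR-717 replicate 1, when it passed the thresholds as lower. In that fit 46 of all 14194 genes tested passed as lower, in place of 35. Over the 9 members, log2 fold changes ran from -0.16 (Aldoc) to 0.56 (Pfkp) in SR-717 against PBS and from -0.40 (Pfkl) to 0.50 (Pfkm) in H-151 against PBS.

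Lower glycolysis yields the ATP and pyruvate. Gapdh, the triose phosphate dehydrogenase, had the highest mean level of the 36, at 3522, 4105 and 2916 TPM in H-151, 3627, 4156 and 2082 TPM in PBS and 4228, 3531 and 4524 TPM in SR-717. Pkm, pyruvate kinase, was at 1052, 1099 and 714 TPM in H-151, 1205, 1178 and 669 TPM in PBS and 1636, 902 and 1164 TPM in SR-717. PBS replicate 3 was the lowest library in both, 2.16 times below the highest in Gapdh and 2.59 times in Pkm on the CPM scale. Gapdh is often used as a reference gene in PCR, and its log2 fold change was 0.44 ± 0.28 in SR-717 against PBS (not past the thresholds). Pgk1, Pgam1 and Eno1 pass the carbon on from bisphosphoglycerate to phosphoenolpyruvate. Each was highest in SR-717 replicate 1, by 1.27, 1.45 and 1.72 times over the next library on CPM. Eno2 was at 6.07, 4.96 and 5.10 CPM in H-151, 5.12, 5.70 and 4.63 CPM in PBS and 3.43, 4.22 and 4.05 CPM in SR-717. The log2 fold change of Eno2 was -0.39 ± 0.23 against PBS and -0.46 ± 0.21 against H-151, with no call in either, and it rests on 67 to 134 counts per library.

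Lactate dehydrogenase is a tetramer of A and B subunits, of which the A subunit prevails in glycolytic tissue. Ldha was at 1254, 1432 and 1097 TPM in H-151, 1449.9, 1496 and 898 TPM in PBS and 1453, 1162 and 1579.7 TPM in SR-717. Ldhb was far lower and went the other way in SR-717 replicate 1, with 27.6 TPM there and 46.6 to 108 TPM in the other 8 libraries. The A subunit thus gave 98.1% of the summed TPM in SR-717 replicate 1 and 92.1% to 96.9% elsewhere.

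Flux regulators decide how much carbon enters glycolysis and how much pyruvate goes to the mitochondria. Pdk4, a kinase that shuts pyruvate dehydrogenase and favours the burning of fat, was at 107, 234 and 252 CPM in H-151, 119.5, 106 and 74.1 CPM in PBS and 48.3, 190.3 and 142 CPM in SR-717. In 2 H-151 libraries it was above every other library, while H-151 replicate 1 lay inside the PBS range, so the groups overlapped. It was 1.98-fold higher in H-151 than in PBS (log2 fold change 0.99 ± 0.35, past the unadjusted threshold by edgeR, adjusted p = 1.00), and the log2 fold change was 0.92 ± 0.36 with the replicate block, still past it. The call was lost without H-151 replicate 2 (log2 fold change 0.85) or 3 (0.77), without PBS replicate 2 (1.04) or 3 (0.82), and kept without H-151 replicate 1 (1.29) or PBS replicate 1 (1.14). In SR-717 against PBS the log2 fold change of Pdk4 was 0.36 ± 0.48 with no call, and 0.75 ± 0.26, past the thresholds as higher, without SR-717 replicate 1. In that fit 60 of all 14194 genes tested passed as higher, in place of 38. Adipocytes and muscle express Pdk4: in the H-151 comparison the 8 adipocyte markers summed to 339, 362 and 352 TPM in H-151 and to 296, 336 and 262 TPM in PBS, the 6 that were tested had a median log2 fold change of 1.16, with none past the thresholds by edgeR and 1 past them as higher by DESeq2, and the 12 muscle markers had a median log2 fold change of 0.39, with none past them by either tool. Their part in the difference between H-151 and PBS was not tested.

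Pfkfb3, which makes the fructose bisphosphate that activates phosphofructokinase, was at 62.8, 65.2 and 44.4 CPM in H-151, 124, 52.6 and 43.1 CPM in PBS and 314, 56.1 and 56.3 CPM in SR-717. Relative to H-151, SR-717 had a log2 fold change of Pfkfb3 that was 1.31 ± 0.72 (not past the thresholds) and -0.03 ± 0.18 without SR-717 replicate 1, the only high library of its group. Pfkfb4, a relative of it, was 1.89 times higher in that library than in any other. Pdk1, the pyruvate dehydrogenase kinase induced by HIF, ranged only from 33.9 to 53.7 CPM.

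HIF alpha subunits and prolyl hydroxylases form the oxygen sensor. Hif1a was at 121, 116 and 99.2 CPM in H-151, 215, 65.5 and 190.0 CPM in PBS and 612, 72.9 and 65.6 CPM in SR-717 (a member described in full after its values were seen). The H-151 libraries lay close together, and the SR-717 group held the highest library and 2 of the 3 lowest. The log2 fold change in SR-717 against H-151 was 1.17 ± 0.88 with no call, and it turned to -0.69 ± 0.14, past the thresholds as lower, without SR-717 replicate 1. In that fit 79 of all 14270 genes tested passed as lower, in place of 55. Against PBS the log2 fold change of Hif1a went from 0.69 ± 0.96 to -1.17 ± 0.52 without that library, with no call in either case. Epas1 (HIF-2 alpha), which prevails in endothelial cells, stayed within 147 to 254 CPM. Hif1a gave 74.7% of the summed TPM of both subunits in SR-717 replicate 1 and 28.6% to 59.7% in the other libraries.

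Egln3 (PHD3), a prolyl hydroxylase that HIF itself induces and whose promoter is printed above, had the widest range of all members, 14.4 times from its lowest to its highest library. It was at 18.1, 13.5 and 11.5 CPM in H-151, 32.6, 13.6 and 6.08 CPM in PBS and 87.4, 12.8 and 14.9 CPM in SR-717. It had the largest log2 fold change of any member in SR-717 against H-151, 1.42 ± 0.77 (not past the thresholds), and -0.05 ± 0.23 without SR-717 replicate 1. Without SR-717 replicate 2 it was 1.84 ± 0.70 and passed as higher, in a fit where 214 of all 14299 genes did, in place of 52. Against PBS the log2 fold change of Egln3 was 1.16 ± 0.93, and -0.33 ± 0.67 without SR-717 replicate 1. Egln1 (PHD2), the main oxygen sensor under normal oxygen, varied least, from 63.3 to 85.7 CPM. PBS replicate 1 was second in inflammation genes and on the first principal component of all genes (38.8). It was also second in Hif1a, Egln3, Pfkfb3, Slc2a1 and Bnip3, but lay below 3 libraries besides SR-717 replicate 1 in Slc2a3 and in Slc16a1. A link between these ranks was not tested.

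The remaining hypoxia genes were Bnip3 (mitophagy), Car9 (a carbonic anhydrase that sets extracellular pH), Ankrd37 and Ndrg1. Bnip3 was at 128 CPM in SR-717 replicate 1 and at 39.3 to 61.4 CPM in the other 8 libraries. Ankrd37 was at 1.48, 1.93 and 1.72 CPM in H-151, 4.60, 2.08 and 1.90 CPM in PBS and 4.91, 1.22 and 2.14 CPM in SR-717. Its values were low, 26 to 96 counts per library, and high only in the 2 libraries that also led in inflammation genes. A link to those genes was not tested. In H-151 against PBS, the log2 fold change of Ankrd37 was -0.73 ± 0.41 (not past the thresholds), and -0.21 ± 0.29 without PBS replicate 1. Car9, often used as a marker of hypoxia, ranged only from 1.77 to 2.82 CPM (32 to 57 counts) and Ndrg1, a stress gene, from 62.4 to 117 CPM.

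The 3 muscle isoforms are the mutase Pgam2, the enolase Eno3 and the insulin-responsive glucose transporter Slc2a4 (GLUT4). Pgam2 was at 506, 664 and 561 TPM in H-151, 460.2, 704 and 146 TPM in PBS and 257, 578 and 922 TPM in SR-717. Eno3 was at 672, 926 and 721 TPM in H-151, 609, 1096 and 205 TPM in PBS and 419, 748 and 1204 TPM in SR-717. Slc2a4 was at 40.1, 54.3 and 43.0 TPM in H-151, 22.7, 65.5 and 10.9 TPM in PBS and 12.2, 38.8 and 76.7 TPM in SR-717. All 3 had PBS replicate 3 and SR-717 replicate 1 as their lowest libraries and SR-717 replicate 3 as their highest, so each treated group overlapped with PBS. In SR-717 against PBS their log2 fold changes were 0.53 ± 0.61 (Pgam2), 0.42 ± 0.60 (Eno3) and 0.45 ± 0.76 (Slc2a4), and in H-151 against PBS 0.46 ± 0.48, 0.34 ± 0.51 and 0.51 ± 0.55, none past the thresholds (edgeR). Between SR-717 and H-151 they were 0.05 ± 0.41, 0.07 ± 0.36 and -0.07 ± 0.54. Without PBS replicate 2, Slc2a4 passed as higher in H-151 (1.44 ± 0.31), and so did Pfkm (1.06 ± 0.37). In that fit 482 of all 14229 genes tested passed as higher, in place of 37 with all libraries.

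The summed level of muscle markers moved with them. The 12 markers of mature skeletal muscle (Acta1, Ckm and others), all with reads in every library, summed to 19575, 30269 and 22529.7 TPM in H-151, 20415, 30728 and 6905 TPM in PBS and 13362, 28496 and 38490.2 TPM in SR-717. They too were lowest in PBS replicate 3, then in SR-717 replicate 1, and highest in SR-717 replicate 3. The part of muscle tissue in the callus samples in these values was not tested.

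**Figure D4:**
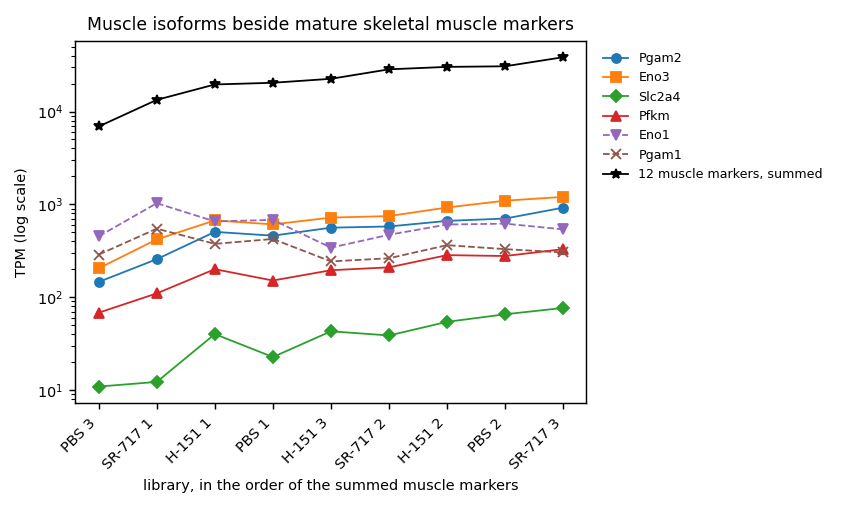
Levels (TPM, log axis) of the muscle isoforms Pgam2, Eno3 and Slc2a4 and of Pfkm (solid lines) and of the ubiquitous Eno1 and Pgam1 (dashed), with libraries ordered by the summed level of 12 skeletal muscle markers (black). All 3 isoforms are lowest at the left end, in PBS replicate 3 (Pgam2 146 TPM), and highest at the right, in SR-717 replicate 3 (922 TPM).

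Isoform shares within a library, taken from the same TPM values, show the same split. Eno3 gave 28.9% of enolase TPM in SR-717 replicate 1 and 31.0% in PBS replicate 3, against 47.0% to 69.0% in the other 7 libraries. Pgam2 gave 31.9% and 33.7% of mutase TPM in those libraries and 52.0% to 75.2% in the others. Slc2a4 gave 6.71% of the TPM of the 3 glucose transporters in SR-717 replicate 1 and 23.2% to 72.2% elsewhere, while Slc2a1 gave 64.6% there. Pfkm gave 46.7% of phosphofructokinase TPM in SR-717 replicate 1, 59.7% in PBS replicate 3 and 67.0% to 87.1% in the others, with Pfkp at 26.0% in SR-717 replicate 1 and 6.80% to 16.9% elsewhere. The 6 shares that were compared between groups (Hk2, Pfkp, Eno3, Pgam2, Ldhb and Slc2a3, in 3 comparisons) all overlapped. The smallest of the 18 exact two-sided permutation p-values was 0.3, where 3 libraries against 3 cannot go below 0.1, and all adjusted values were 0.9. Taken as differences between same-numbered libraries, the Pfkp share was lower in H-151 than in PBS in 3 of 3 pairs (11.4% against 15.5%, 7.43% against 8.24% and 8.32% against 16.9%), and the Ldhb share was lower in SR-717 than in PBS in 3 of 3. Both had an exact sign-flip permutation p of 0.25, the smallest that 3 pairs allow, and the other 10 paired values against PBS were 0.5 or more. The group means of the Eno3 share were 59.4% ± 8.61 in H-151, 47.3% ± 16.3 in PBS and 53.0% ± 21.3 in SR-717 (SD, n = 3).

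**Figure D5:**
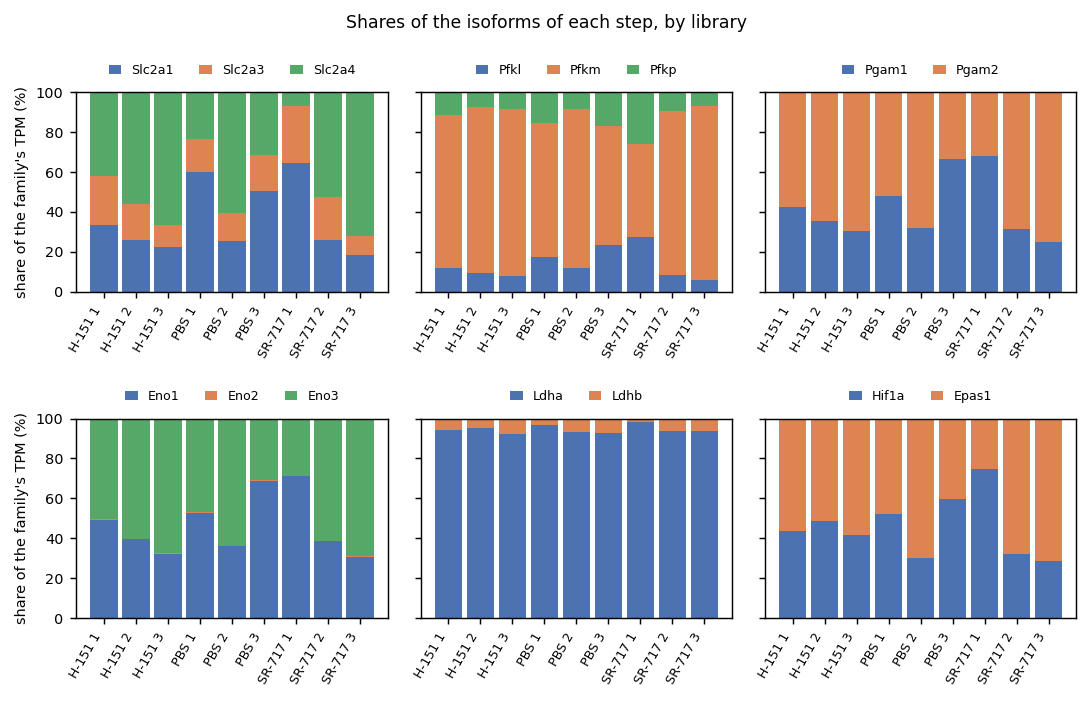
Stacked bars of the share of each isoform in the summed TPM of its family (percent), by library, for glucose transporters, phosphofructokinases, mutases, enolases, lactate dehydrogenase and HIF alpha subunits. SR-717 replicate 1 and PBS replicate 3 have the smallest shares of Eno3 (28.9% and 31.0%) and Pgam2, and Ldha stays at 92.1% to 98.1% throughout.

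Other genes of the same pathways were counted from lists of 21 glycolysis and glucose genes and 24 HIF pathway genes. Of the first list, 19 were tested in each comparison with PBS and 20 in SR-717 against H-151, and none passed the thresholds or an unadjusted p of 0.05 by edgeR (1 had such a p by DESeq2, in SR-717 against PBS). Of the second, all 24 were tested, and in SR-717 against PBS 1 passed as higher (Adm) and 1 as lower (Car12). Over all genes tested, 0.27% and 0.249% did. In SR-717 against H-151, 2 passed as lower (Car12 and Stc2), where 0.389% of all genes did. In H-151 against PBS none passed (0.263% higher and 0.163% lower over all genes). There 1 unadjusted p was below 0.05 by edgeR (Vegfa, log2 fold change -0.47, under the fold threshold) and 1 by DESeq2. The medians of this list were -0.06, -0.02 and -0.05 in SR-717 against PBS, SR-717 against H-151 and H-151 against PBS. Arnt, the partner of HIF, and Vhl, which marks it for degradation, had log2 fold changes of -0.01 to 0.06 in the 3 comparisons.

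Car12, a membrane carbonic anhydrase related to Car9, was at 11.8, 18.7 and 7.51 TPM in H-151, 13.5, 10.0 and 10.7 TPM in PBS and 4.78, 6.40 and 6.62 TPM in SR-717. All 3 SR-717 libraries were below all 6 others. The log2 fold change of Car12 by edgeR was -0.86 ± 0.21 against PBS (adjusted p = 1.00) and -1.02 ± 0.31 against H-151 (adjusted p = 0.996). It kept both calls without each library in turn, between -0.98 and -0.73 against PBS and between -1.24 and -0.63 against H-151. Chondrocyte markers were also lower in both group comparisons. In SR-717, 8 of 8 had a negative log2 fold change against PBS (median -0.98) and against H-151 (median -1.03). Without SR-717 replicate 1, 7 of 8 did in each (medians -0.48 and -0.49). None passed the thresholds by edgeR, and 1 passed them as lower by DESeq2 in each comparison. By library, the summed markers and Car12 did not share an order. SR-717 replicate 1 was lowest in both (143 TPM of markers). PBS replicate 1, next lowest in markers (645 TPM), had 13.5 TPM of Car12. PBS replicate 2 had the highest marker sum (5901 TPM) and 10.0 TPM of Car12. The part of these markers in the Car12 values was not tested. Adm, the vasodilator adrenomedullin, was at 5.09, 7.74 and 3.67 TPM in PBS and 10.5, 9.12 and 7.61 TPM in SR-717. A log2 fold change of 0.85 ± 0.33 (edgeR, adjusted p = 1.00) lost its call without PBS replicate 1 (0.80) or 3 (0.66), without SR-717 replicate 1 (0.69) or 2 (0.85), and with library totals in place of TMM (0.79). Stc2, a secreted stanniocalcin, was at 3.63, 2.66 and 2.51 TPM in H-151 and 1.09, 2.06 and 2.02 TPM in SR-717, with a log2 fold change of -0.70 ± 0.28 (edgeR, adjusted p = 0.996). It lost the call without any 1 H-151 library, without SR-717 replicate 1 or 3 (-0.78 to -0.48 over these 5) and with the replicate block (-0.73).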

How the data were processed

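Day-7 callus was sequenced in 9 libraries (1 mouse or a pool each is not stated) as paired reads of 150 bases. The authors deposited 1 table with expected counts and TPM (counts scaled for gene length and library) per gene and library; the submitters' processing notes name the build mm10, while the aligner, counter and annotation are not given in the sources used here. Between 8.57% and 9.20% of genes per library had a count that was not whole, among the members Pfkp, Gapdh and Eno1 in all 9 libraries and Slc16a3 in 6, so reads shared with related sequences may be split there. Deposited expected counts were rounded and tested with edgeR 4.0.16 (quasi-likelihood, TMM, filterByExpr with a minimum count of 10 and total of 15) in R 4.3.3, 2 groups at a time with no covariates, over all genes that passed the filter, with Benjamini-Hochberg adjustment. All 36 members passed it. Calls used the study's thresholds, an unadjusted p of 0.05 and 1.5-fold, and beside them an adjusted p of 0.05. The edgeR step was run on simulated counts with known changes, where only the median log2 fold change of the changed genes was checked. No simulated library stood apart as SR-717 replicate 1 does, so this check does not bear on the calls. Normalized counts (CPM) are TMM-scaled over 9 libraries. Isoform shares are from the deposited TPM, tested by exact two-sided permutation. Library totals of 16987398 to 23272480 counts set the counting precision. No 2 libraries were copies (36 pairs).

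Between SR-717 and PBS, libraries with the same replicate number correlated in how they differed from their group means (r = 0.676, 0.359 and 0.127). Between H-151 and PBS they did so too (r = 0.33, 0.531 and 0.535). All these pairs were above 0.1. Unlike-numbered pairs ran from -0.603 to 0.393 in SR-717 and PBS and from -0.426 to 0.0256 in H-151 and PBS. In SR-717 and PBS, SR-717 replicate 3 with PBS replicate 2 (0.393) thus exceeded the same-numbered pairs 2 and 3. These values do not show that libraries were paired by number there. The meaning of a shared number is not stated in the labels.

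Members and gene lists were chosen with earlier results of these data known. Values in every library are given for members past the thresholds, the 3 largest absolute log2 fold changes in each comparison, the 5 highest mean TPM and the muscle isoforms; Slc16a3, Pfkl, Pfkm, Eno2, Ldhb, Hif1a, Bnip3 and Egln1 were added after their values were seen. Alternatives were DESeq2 1.42.0 (test and size factors), library totals, other filters, 1 fit of 9 libraries, a replicate block and leaving out libraries. Promoter windows are from RefSeq (GRCm38.p6).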

Additional observations from a re-analysis of the deposited data

How the results depend on the processing

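Of 383 alternative values for 36 results, 332 counted as the same, 22 reversed, 18 moved, 6 passed the threshold anew and 5 lost it. What counted as the same differed by kind of result. For the log2 fold change of a gene, it was the same direction and side of the threshold. A count of members had to be equal, and a share difference had to keep its sign. A median had to shift by less than the spread between libraries of a group, whatever its sign. With 3 libraries a group, members past the thresholds hung on single libraries; the cause was not tested. In SR-717 against PBS, the count of members higher was 0, and 1 by DESeq2 (Slc16a1), 1 with 9 libraries in 1 fit (Slc16a1), 1 without both SR-717 replicate 1 and PBS replicate 1 (Pdk4) and 0 to 2 leaving out each library (Pdk4 without SR-717 replicate 1, Slc2a3 and Slc16a1 without SR-717 replicate 3); members lower ran from 0 to 1 (Pfkl). The median of the 33 members ran from -0.021 to 0.49 and Egln3 from -0.33 to 1.97. In H-151 against PBS, members higher were 1, 0 with 9 libraries in 1 fit (Pdk4 lost) and 0 to 2 leaving out each library (Slc2a4 and Pfkm without PBS replicate 2), and members lower 0 to 1 (Hif1a without PBS replicate 2, log2 fold change -0.85); the median ran from -0.11 to 0.12. In SR-717 against H-151, members higher ran from 0 to 2 (Hk2 and Egln3 without SR-717 replicate 2, Slc16a1 without replicate 3) and lower from 0 to 1 (Hif1a without replicate 1); the median ran from -0.030 to 0.44, Egln3 from -0.054 to 1.84, Pfkfb3 from -0.030 to 1.70 and Slc2a1 from -0.26 to 1.71.

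Leaving out each library moved differences between mean isoform shares across 0, in percentage points: in H-151 against PBS Hk2 (-2.75 to 2.93), Ldhb (-0.881 to 1.29) and Slc2a3 (-1.39 to 5.21), in SR-717 against PBS Eno3 (-2.34 to 17.8), Pgam2 (-1.44 to 20.7), Pfkp (-5.38 to 4.21), Ldhb (-2.37 to 0.393) and Slc2a3 (-0.816 to 8.88), and in SR-717 against H-151 Eno3 (-14.4 to 5.67), Pgam2 (-13.6 to 8.05), Pfkp (-0.875 to 8.72) and Slc2a3 (-2.63 to 7.07).

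Over all genes, higher and lower calls in SR-717 against PBS were 38 and 35, 93 and 45 by DESeq2, 141 and 53 without a filter, 20 and 17 at a mean count of 50, 117 and 59 with 9 libraries in 1 fit, 342 and 101 with the replicate block, and 26 and 51 with library totals. In H-151 against PBS they were 37 and 23, and 44 and 39, 89 and 38, 17 and 11, 39 and 27, and 201 and 61 under the first 5 of these alternatives. In SR-717 against H-151 they were 52 and 55, and 147 and 62, 123 and 100, 37 and 24, 109 and 62, and 88 and 55. Leaving out each library gave 60 to 261 higher and 24 to 108 lower, 30 to 482 and 13 to 216, and 19 to 544 and 36 to 170 in the 3 comparisons. The most higher calls came without SR-717 replicate 3 (261), PBS replicate 2 (482) and SR-717 replicate 3 (544), fits in which members were also called. In SR-717 and H-151, same-numbered libraries had r = 0.38, 0.0735 and 0.0769, and unlike-numbered pairs ran from -0.345 to 0.209. The replicate block gave 1 member lower in SR-717 against H-151 (Pdk4, log2 fold change -0.75). Beside the values given here and above, the block changed no other call of a member.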
